A study of Homo sapiens with 8 samples.

Results

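The loci described here are a family of short CpG runs that share one spacing and were chosen for the methylation they kept when DNMT1* was withdrawn. HUES64 is an established line of human embryonic stem (ES) cells. The derivative measured carries the genotype DNMT1 knockout in every sample, and DNMT1* is the added copy of the enzyme whose withdrawal starts the course. Genomic DNA was read by RRBS (reduced representation bisulfite sequencing, which covers CpGs near MspI cut sites) on days 0, 1, 2, 3, 4, 5, 6 and 7. Each day has 1 library, so no value has a replicate. By their labels all groups share the knockout and differ by day only, but depth also differed between days, as given below.

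Members were found from the positions of the listed CpGs alone. All 3086582 autosomal CpGs listed in any library were put in order, and every run of 6 successive CpGs with 1 of 3 spacings, in either reading direction, was taken. The 3 spacings are overlapping windows of 1 longer order of gaps, namely 17, 8, 13, 7, 9, 8 and 8 bp, which holds 8 CpGs in 72 bp. Merging 543 overlapping runs gave 205 loci with 1568 CpGs. Of these loci, 153 held all 8 places, 32 held 7 and 20 held 6, and 105 were read forward and 100 in reverse along hg19. They lay on all 22 autosomes, with 19 on chromosome 1 and 2 on chromosome 22. The spacings were chosen by measured values of these same libraries, as the family with the highest retention. Which libraries and which measure of retention ranked them is not stated, so all retention values of the family are treated as used. The retention of the family is therefore given as a description with no test.

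As background, DNMT1 copies CpG methylation onto the newly made strand at each DNA replication, so its loss lets methylation dilute as cells divide. Alu elements are short primate retroelements, rich in CpGs and normally methylated in somatic and pluripotent cells. The order of gaps here, with the upstream gaps given below, is that of the CpGs in the right arm of young Alu elements of the Yb lineage, which carry a short duplication there. No repeat annotation and no hg19 sequence were used, so which loci are Alu elements was not tested, and no sequence is printed.

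Of the 205 loci, 202 had at least 10 reads in every library. Among these, 198 had a starting level of 80% methylation or more, with the reads of days 0 and 1 added up, and they are called the family below. The 4 loci under 80% started between 61.3% and 79.9%, and the lowest of them was chromosome 19: 1194905 to 1194959, at 61.5% on day 0 and 8.62% on day 7. The other 3 loci, on chromosomes 2, 5 and 9, had fewer than 10 reads in some library. They kept 29.3%, 30.4% and 39.2% of their starting level on days 6 and 7.

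The libraries were of 2 kinds in depth. A family locus had a median of 258 to 529.5 reads over its CpGs on days 0, 1, 2, 6 and 7, and of 35 to 38 on days 3, 4 and 5. Reads from near-identical copies can be placed at the wrong one, and how often that happened was not tested. On day 0 the family had a median of 61.8 reads per CpG, against 57.3 in the background runs described next, and no locus was over 518. The rest of the autosomes was cut in position order into blocks of 6 successive CpGs spanning at most 100 bp. With the same limits on reads and starting level, this gave 25381 background runs, which hold no member.

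Methylation of the family was lower on each day than on the day before. Its mean level over loci on days 0 to 7 was 87.6%, 85.1%, 79.2%, 66.6%, 49.8%, 40.7%, 27.8% and 23.2%. Over the same days, in background runs, the mean was 87.2%, 83.9%, 75.4%, 55.4%, 39.4%, 31.2%, 21.9% and 17.9%. The SD over family loci was 2.49 points on day 0, 12 points on day 3 and 2.91 points on day 7. The 2 sets thus began 0.41 points apart. The family was 3.8 points above background on day 2 and 11.2 points above on day 3, and 5.36 points above on day 7.

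In relative terms the family stood at 1.05 times the background mean on day 2, at 1.2 times on day 3 and at 1.27 to 1.3 times on days 4 to 7. The widening lay between days 1 and 4, and from day 4 on the ratio hardly moved. From day 1 to day 2 the family kept 93.1% of its level, against 89.9% in background runs, and from day 2 to day 3 it kept 84.1%, against 73.5%. The step into day 6 differed from these, with 68.3% kept in the family and 70.1% in background runs. Days 3, 4 and 5 are the shallow libraries, so single days there carry more error. For the pooled reads of the family on day 3 the Wilson 95% interval was 65.1 to 67.2%. The steps into day 3 and into day 6 are also the changes between deep and shallow libraries. At these steps, day and kind of library cannot be told apart.

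As an exponential decline, the log slope of the family was -0.204 ± 0.02 per day (SE, n = 8 libraries), a halving time of 3.39 days. Background runs declined at -0.248 ± 0.018 per day, with a halving time of 2.8 days. In the 5 deep libraries alone the slopes were -0.208 for the family and -0.248 for background runs.

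**Figure D1:**
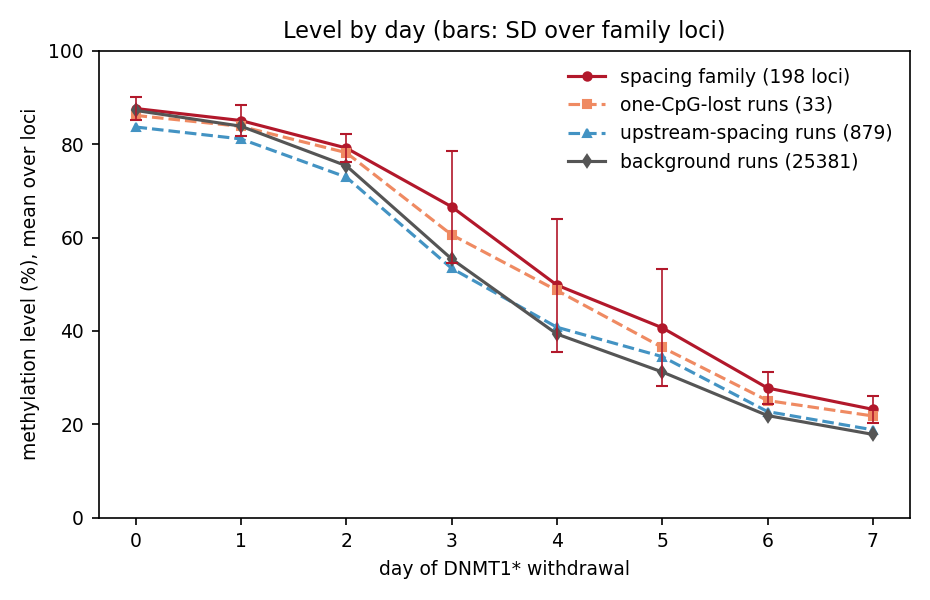
Methylation level in percent (y) by day of DNMT1* withdrawal (x), as the mean over loci of the spacing family, of runs with 1 CpG of the spacing lost, of runs with the upstream spacing and of background runs; bars are the SD over family loci. The family and background curves start together, at 87.6% and 87.2%, and are farthest apart on day 3, at 66.6% and 55.4%.

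The kept share of a locus is its level on pooled days 6 and 7 as a percentage of its level on pooled days 0 and 1. Its median was 29.4% over the 198 family loci and 22.7% over background runs. From a starting level of 90% or more the sets lay closer. There 13 family loci kept 29.1% and 3783 background runs kept 25.6%, by the ratio of mean levels. The family ranged from 23% to 36.4%, so all 198 loci lay above the background median, yet the family was also narrow, with an SD of 2.71 points against 6.03 in background runs. At 1.25 times the background median, 128 of the 198 loci passed, or 64.6%, beside 16.5% of all runs. At 1.5 times, 11 of the 198 passed, or 5.56%, beside 4.07% of all runs. Single background runs reached a kept share of 58.6%, above every family locus. Background runs are many more, and some had as few as 9 reads per CpG on day 0. Whether the runs that kept most are the shallow ones was not tested. Since retention chose the spacings, nothing is read from these counts.

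On days 3 to 5 the median kept share was 60% in the family and 49.1% in background runs. Of the 198 loci, 86 (43.4%) stood at 1.25 times the background median there, beside 14.8% of all runs. These libraries belong to the same course and are not independent of the choice.

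**Figure D2:**
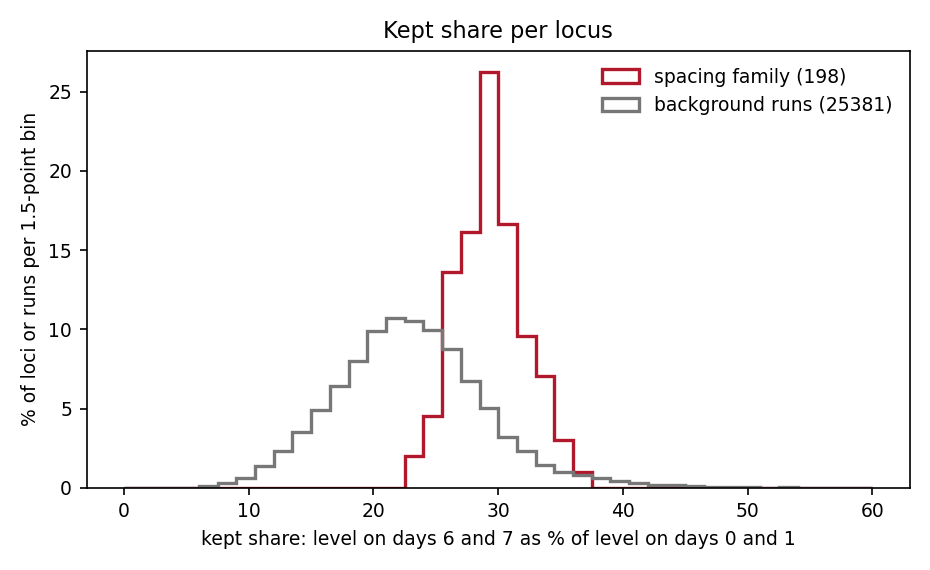
Kept share in percent (x), that is the level on days 6 and 7 relative to days 0 and 1, against the percentage of loci or runs in each bin (y), for 198 family loci and 25381 background runs. The family forms a narrow peak with a median of 29.4%, inside the upper flank of the wide background distribution, whose median is 22.7%.

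The 5 family loci that kept most were named by rule, among loci with 50 reads or more in each deep library. Chromosome 2: 10297179 to 10297225 kept 36.4%, and its levels on days 0 to 7 were 81%, 82.3%, 75.1%, 68.2%, 50%, 50%, 36% and 23.7%. Chromosome 1: 153668968 to 153669039 kept 36.1%, with 90.3% on day 0, 32.7% on day 6 and 30.6% on day 7. On day 6 both stood above the family mean of 27.8%, while on day 7 the first was near the mean of 23.2%. On day 4 the second read 3 methylated of 28 reads (10.7%), below its own later days.

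The next loci in this order were chromosome 10: 122410105 to 122410176, chromosome 16: 75427560 to 75427623 and chromosome 1: 53186627 to 53186681. Their kept shares were 35.9%, 35.4% and 35%. The 5 loci that kept least lay on chromosomes 3, 7, 9, 19 and 18, at kept shares of 23% to 24.4%. The lowest, chromosome 3: 183817433 to 183817504, stood at 89.2% on day 0 and 17.6% on day 7 (86 of 489 reads). Its pooled level on days 6 and 7 was 20.5% (Wilson 95% interval 18.0 to 23.3%). For the locus with the highest kept share, on chromosome 2, this level was 29.6% (interval 26.1 to 33.4%). These intervals do not overlap, but they are of the late level, while the loci were ranked by kept share. By late level, chromosome 1: 153668968 to 153669039 was higher, at 31.7%. The intervals cover counting error only, with every CpG read taken as independent, and both loci were picked as extremes among many.

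The locus with the most reads was chromosome 7: 43358917 to 43358988, with 4142 CpG reads on day 0. Its levels on days 0 to 7 were 91.1%, 90%, 84%, 78.1%, 62.7%, 49.5%, 30.4% and 28%. Its kept share of 32.2% lay above the family median. The next 4 loci by reads, on chromosomes 9, 4, 21 and 10, had 882 to 991 reads on day 0 and kept shares of 25.5 to 29.3%, all below that median. Over the family, reads per CpG on day 0 and kept share were nearly unrelated (Spearman rho = 0.069 over 198 loci that share the same libraries), and this is given as a description.

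The order of the loci was only weakly shared between days. Across the 198 loci the levels on days 0 and 1 correlated at Pearson r = 0.234 and those on days 0 and 2 at 0.183. For days 0 and 7 Pearson r was 0.142, and for days 6 and 7 it was 0.083. By rank, Spearman rho for these pairs was 0.218, 0.101, 0.127 and 0.087, in the same order. The loci share both libraries of each pair, and counting error lowers such values, so they are given as a description. The SD over loci was 2.91 points on day 7, where counting error alone, with every CpG read taken as independent, would give 1.98 points. Because CpGs on 1 read are 1 molecule, that counting error is an underestimate. The SD over loci was thus above that counting error, and so it was on day 6, at 3.47 points against 2.1. Since the true counting error is larger than the one given, how far loci differ beyond counting was not estimated.

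Reading direction and completeness made little difference. Loci read in reverse kept 29.1% and loci read forward 29.6%. Loci with 8, 7 and 6 CpGs kept 29.3%, 29.9% and 29.6%. On the 19 autosomes with 5 or more family loci, the kept share ranged from 27.6% to 31.3%, and on each of the 19 it was above that of the background runs of the same chromosome, which were at 23.8% at most.

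Retention was uneven inside the run. These values come from the same course that chose the spacings and are described without a test. Places are counted from 1, at the CpG before the 17-bp gap, to 8. Pooled over family loci, place 3 kept 35.7% of its starting level on days 6 and 7, place 4 kept 29.4% and place 5 kept 31.4%. Places 1 and 2 kept 22.9% and 24.7%, close to the 23% of the background runs. Places 6, 7 and 8 kept 24.7%, 29.9% and 29.9%. Places 3, 4, 5, 7 and 8 thus stood above the 23% of background runs, while places 1, 2 and 6 were within 2 points of it. On day 0, however, places 6, 7 and 8 stood at 77.9%, 79.1% and 74.5%, against a mean of 87.2% in background runs. Places 1 and 2 stood at 90.1% and 87.9%. Background runs with a starting level of 90% or more kept 25.6%, above places 1 and 2 and below places 3, 4 and 5. The background values are means over runs, while values by place pool reads. Places 3 to 5 gave 54.2% of the family's reads on days 6 and 7, and places 6 to 8 gave 16.1%. The part of starting level in these differences was not tested.

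By level, place 3 stood at 89.8%, 87.2%, 81.6%, 70.7%, 56.4%, 47.4%, 34% and 29.5% on days 0 to 7. Place 2, only 8 bp before it, stood at 87.9%, 84.3%, 76.3%, 62.7%, 45.1%, 36.4%, 23.2% and 19.6%. The log slopes were -0.171 ± 0.017 per day at place 3 and -0.232 ± 0.021 at place 2 (SE, n = 8 libraries), which are halving times of 4.06 and 2.99 days. On pooled days 6 and 7, the Wilson 95% interval was 31.3 to 32.2% at place 3 and 21.0 to 21.8% at place 2. Both had about the same depth, with medians of 96 and 99 reads on day 0.

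The contrast held within single loci. On days 6 and 7 place 3 was higher than place 2 in 184 of 189 loci with 10 or more reads at both, by a median of 11 points. On days 0 and 1 it was higher in 155 of 189, by a median of 2.48 points. Place 3 was higher than place 4 in 167 of 198 loci late in the course, by 5.95 points, although it had been lower in 135 of 198 at the start. Against place 5 it was higher in 152 of 198 loci late, and lower in 147 of 198 at the start.

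Places 6 to 8 differed from the others before withdrawal had run its course. Place 6 stood at 77.9% on day 0, place 7 at 79.1% and place 8 at 74.5%, against 92.2% at place 5, which is 9 bp before place 6. On days 0 and 1 place 5 was above place 6 in 195 of 196 loci, by a median of 14.3 points. Depth moved with this step: the median on day 0 was 31 to 33 reads at places 6 to 8 and 94 at place 5. The listed strand moved too, since place 4 was listed on the strand opposite to the reading direction in 100% of loci, places 2, 3 and 5 in 48 to 51%, and places 1, 6 and 7 in 0%. The part of depth and strand in these differences was not tested.

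**Figure D3:**
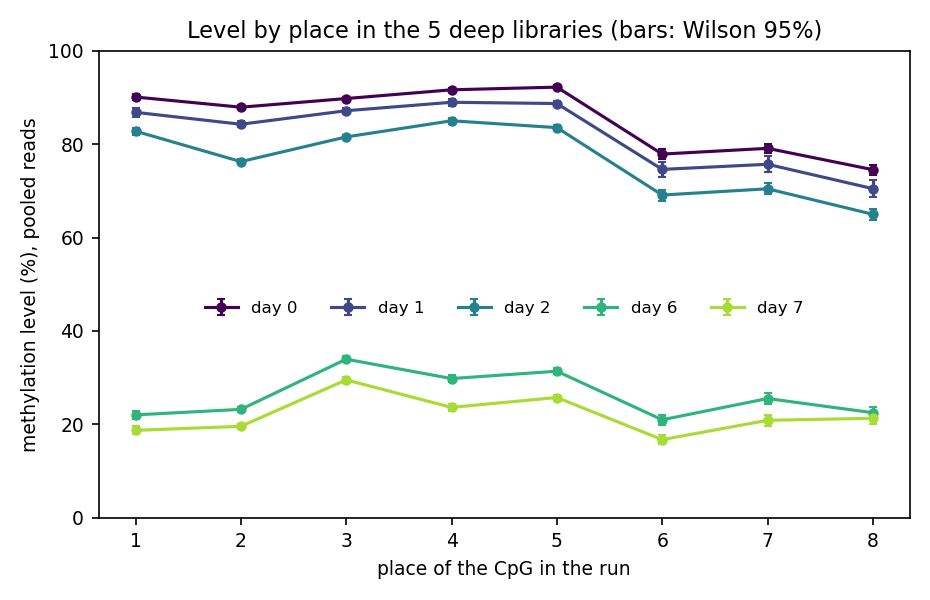
Methylation level in percent over pooled reads of 198 family loci (y) by place of the CpG in the run (x), for the 5 deep libraries; bars are Wilson 95% intervals and cover counting error only. Levels are near 90% at places 1 to 5 on day 0 and drop at place 6, while on days 6 and 7 place 3 stands out, at 34% and 29.5%.

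CpGs before the run, whose positions the spacings did not use, are described in the same way. In 131 of the 205 loci the run was preceded by 4 CpGs at gaps of 7, 8, 24 and 20 bp, which extends the shared order upstream. At 7 bp before place 1 the family stood at 89.2% on day 0 and 18.1% on day 7, and kept 22.6%. At 15 bp before it the kept share was 31.5%, at 39 bp 25.8% and at 59 bp 30.2%. On day 0 these CpGs stood lower, at 72.4%, 66.7% and 76.1%. At 75 bp the kept share was 22.4%, from 90.1% on day 0. Farther out, the CpG 193 bp before place 1, listed in 128 loci, stood at 69.7% on day 0 and 24.5% on day 7. Its kept share of 36.5% was above that of place 3, but from a lower start. Its level on day 7 was below the 29.5% of place 3. Over the wider surroundings, pooled over all CpGs in a distance range whatever their start, the kept share lay between 21.8% and 24.8% on either side out to 1900 bp. One CpG, 69 bp before place 1, stood apart at the start, at 25.3% on day 0 where its neighbours at 71 and 63 bp stood at 76.1% and 73.2%.

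The same upstream spacing occurs outside the family. Runs with gaps of 20, 24, 8, 7 and 17 bp that overlap no member numbered 1460, and 879 of them met the limits on reads and starting level. This set was chosen after the data were seen and gets no test. At the 6 CpGs that both sets share, 59 bp before place 1 to place 2, the kept share of the family differed from that of these runs by -0.39 to 1.15 points, over the 114 family loci that hold all 6. At place 1 it was 22.9% in the family and 22.8% in the other runs, and at 15 bp before place 1 it was 32.2% in the family and 32.6% in the others.

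Most of these other runs also went on with the family's own spacing. Of the 879, 758 had CpGs at each of the first 5 places and no listed CpG at place 6, which all 3 spacings of the family need. Over these 5 places, 164 family loci and 714 of these runs had 10 or more reads in every library. On days 0, 6 and 7 the family stood at 90.2%, 28.6% and 23.9%, and the other runs at 90.2%, 28.1% and 22.9%. The kept share was 29.4 ± 2.76% in the family and 28.6 ± 3.0% in the others (SD over loci). The difference between the sets was not tested.

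Place by place, the profile was nearly the same. Place 3 kept 36.1% in these family loci and 36.6% in the other runs, and place 4 kept 29.4% and 29.5%. Place 5 was the exception, with 31.4% in the family and 26.8% in the others. Its depth also differed, with a median of 93 reads on day 0 in the family and 61 in the other runs, and the part of depth in this difference was not tested.

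**Figure D4:**
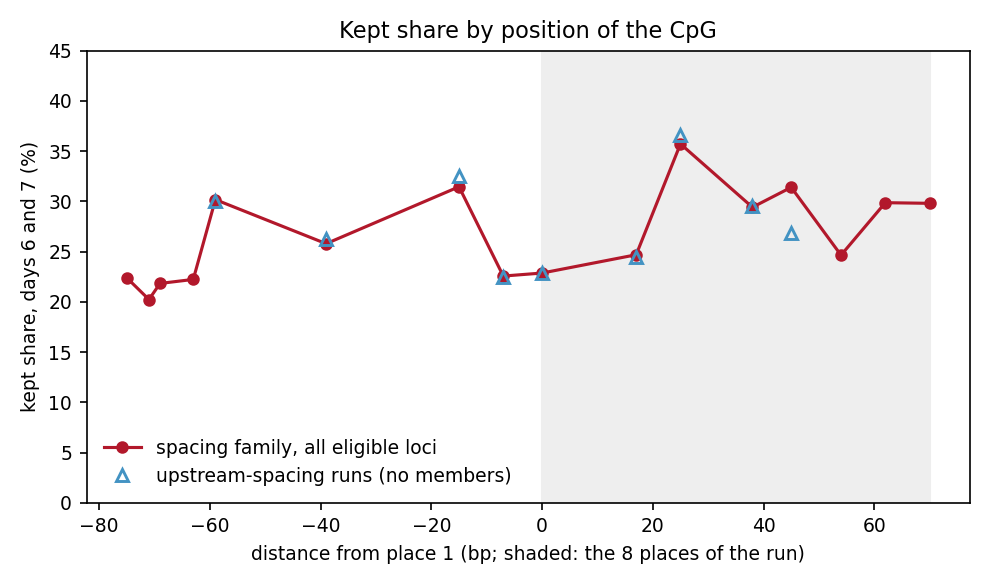
Kept share on days 6 and 7 in percent (y) by distance from place 1 in bp (x), over pooled reads, in the family and in upstream-spacing runs that are no members (the 758 runs with all first 5 places, and 879 runs for the 4 CpGs before place 1). The 2 sets lie close together except at place 5, at 45 bp, where the family is higher, and both have peaks 15 bp before and 25 bp after place 1.

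The difference between places 3 and 2 developed over the course. In 189 family loci it was 2.04, 3.23, 5.55, 8.11, 11, 11.4, 10.9 and 10.2 points on days 0 to 7. In the 839 other runs with a CpG at both positions it was 2.22, 3.11, 5.65, 10.4, 12.5, 12.6, 11.6 and 11.3 points on the same days. There the place 3 CpG was the higher on days 6 and 7 in 834 of 838 runs with 10 or more reads at both.

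**Figure D5:**
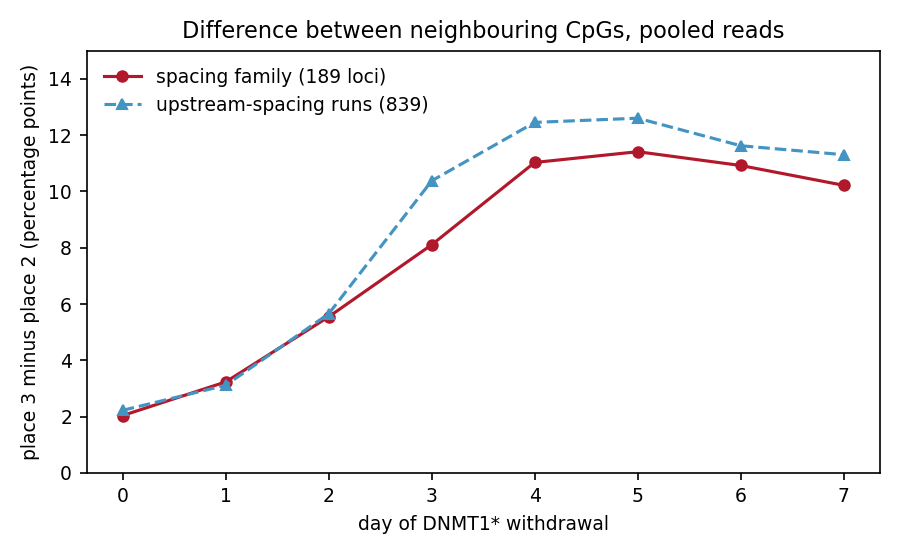
Level at place 3 minus level at place 2 in percentage points (y) by day (x), over pooled reads of 189 family loci and of 839 upstream-spacing runs that are no members. Both curves start near 2 points and stand above 10 points from day 4 on.

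Runs that lack 1 CpG of the spacing are no members. With 1 CpG of the order lost, 2 neighbouring gaps add up, and runs of 6 CpGs with such gaps and none of the family's spacings numbered 38, of which 33 met the limits. Their mean level on days 0 to 7 was 86.2%, 83.8%, 78.2%, 60.6%, 48.7%, 36.5%, 25.1% and 21.8%, and their kept share 27.5%, against 23% in background runs. The natural log of their level over that of background runs gained 0.0316 ± 0.0069 per day (SE, n = 8 libraries), so their decline was slower. An exact two-sided permutation test over the 40320 orders of the days gave p = 0.0064, or 0.0129 adjusted over the 2 tests made. These runs hold places of an order of gaps that was chosen by retention in these same libraries. The test is thus not independent of that choice and gives no separate support for the family's retention. Compared with upstream-spacing runs in place of background runs, a choice made after the data were seen, the gain was 0.0138 ± 0.0071 per day and did not pass (exact permutation p = 0.1). These sets cover different positions, since upstream-spacing runs end at place 2 and one-CpG-lost runs lie within places 1 to 8.

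By the CpG that was missing, the kept shares were as follows, with no test between them. The 15 without place 3 kept 26%, the 14 without place 6 kept 28.8% and the 4 without place 4 kept 28.9%. Their ranges overlapped, at 21.9 to 29.5% without place 3 and 24.8 to 32% without place 6. Place 3 was itself the most retained place of the family, and whether its lack bears on the 26% was not tested.

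CpGs more than 100 and at most 500 bp away from family loci did not pass the test against background runs. This window is not free of positions that the loci share. It takes in CpGs 104 and 193 bp before place 1, listed in 120 and 128 loci, and their part in the result was not tested. Only 26 loci had flanks that met the limits, at 82.9% on day 0 and 19.7% on day 7. The log level gained 0.0183 ± 0.01 per day against background runs (exact permutation p = 0.12, adjusted 0.12, n = 8 libraries). The p does not show that flanks and background are alike, and the flanks' kept share was 25.3%, against 23% in background runs.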

How the data were processed

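RRBS of 8 libraries, 1 per day, was analysed. Per the labels' protocols, RRBS was an earlier method optimised for few cells, and hg19 is the build per the submitters' processing notes. What aligner, caller and filters were used is not given in the sources used here. In the files that the authors deposited each CpG has its methylated and total reads and a score, 1000 times the methylated share. Levels were computed from the reads, with no use of the score. The libraries held 12359218 to 161534152 CpG read calls.

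Positions were joined over the 8 files and starts changed to count from 1. The level of a locus is its methylated reads over its reads, and means weight loci equally; values by place pool reads. At least 10 reads in every library and 80% on pooled days 0 and 1 were asked. Slopes are least-squares fits of natural logs on day. The 2 tests, of loci that are no members, permuted the days exactly, with Benjamini-Hochberg adjustment at 0.05. Wilson 95% intervals cover counting error only, since RRBS reads are not independent molecules. The finder, means and test were tested on simulated data. Named loci are the 5 with the highest and the 5 with the lowest kept share and the 5 deepest, with 50 reads or more in each deep library.

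The members, sets and lists were chosen with earlier results of these data known. Upstream-spacing runs, comparisons between places and the limit of 1.25 times were added after the data were seen. P-values over days of 1 course do not cover variation between courses. Background runs may hold runs of the other sets. Python 3.11.15, numpy 2.4.6, pandas 2.3.3, scipy 1.17.1 and matplotlib 3.10.9 were used.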

Additional observations from a re-analysis of the deposited data

Results flagged for a closer look

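The spacing also occurs on the X chromosome, which the comparisons leave out, and was flagged as a signal in data outside them. Its 5 loci stood at 87.1% on day 0 and at 23.8% on day 7 (573 of 2410 reads, Wilson 95% interval 22.1 to 25.5%), where a count of 0 would allow up to 0.124%. They kept 30.2% on days 6 and 7, inside the range of the autosomal loci.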

How the results depend on the processing

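The family's level on day 7 and its kept share stayed within counting error of 23.2% and 29.4% with at least 5 or 20 reads, pooled reads, an upper limit on coverage or the 5 deep libraries only. With a starting level of 90% or more, which left 13 loci, they were 23.7% and 29.1%. Leaving out 1 day moved the kept share between 26.8% and 32%, since days 6 and 7 differ in level, and the day 7 level between 23.2% and 23.3%. The day 7 level uses day 7 alone, and the kept share uses days 0, 1, 6 and 7. Leaving out any other day, or the shallow days, acts on them only through which loci meet the limits. The kept share of background runs, 23% as reported, was 22.98% with at least 5 reads, 22.8% over pooled reads, 23.1% under a coverage limit, 22.9% in the deep libraries, 25.6% from a start of 90% or more and 22.5% with spans of at most 60 bp, and 20.75 to 25.4% with a day left out. The gain of one-CpG-lost runs over background runs was 0.0303 to 0.0352 per day with a day left out and passed each time; adjusted p was 0.0032 to 0.04 under all alternatives but the next ones. It was -0.0095 (exact permutation p = 0.74) from a start of 90% or more, where 1 run was left, and 0.0138 against upstream-spacing runs. Upstream-spacing runs declined more slowly than background runs, at -0.23 against -0.248 per day, and the cause of that was not tested. The gain of flanking CpGs passed under no alternative, though its p was 0.05 in the deep libraries, at the threshold. At distances beyond 500 bp it was 0.0039 per day. It was 0.0102 to 0.0232 per day with a day left out, and no flank had a start of 90% or more, so that value could not be had. No paired analysis was possible because each day has 1 library. Depth limits days 3, 4 and 5, where a locus has about 35 to 38 reads.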
